A study of Homo sapiens with 6 samples.

Results

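The genes described are 10 that act in, or are controlled by, the YAP and TEAD pathway: the secreted-protein genes CCN1 and CCN2, the nuclear protein gene ANKRD1, the pathway inhibitors AMOTL1, AMOTL2 and LATS2, the LIM scaffold gene AJUBA, the coactivator genes YAP1 and WWTR1, and TEAD1. They were chosen by name, with earlier results of these data known, and each matched 1 of the 57500 Ensembl identifiers in the deposited table. Their levels were measured by polyA-selected RNA sequencing of HEK293T, an established cell line from human embryonic kidney, in 2 groups of 3 libraries. The PRMT1 OV cells were transfected with PolyJet and a pcDNA3 plasmid carrying PRMT1, which adds asymmetric dimethyl groups to arginines of other proteins. The Mock cells, of genotype WT, are labelled vector control, and the labels do not say whether they received an empty plasmid. The labels give neither a time after transfection nor whether the 3 libraries of a group came from separate cultures, so any p-value reflects spread between libraries that could be technical replicates.

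YAP (from YAP1) and TAZ (from WWTR1) are coactivators that bind no DNA themselves and act through the TEAD factors, which recognise GGAATG. The Hippo kinases LATS1 and LATS2 phosphorylate both coactivators, which holds them in the cytoplasm and marks them for breakdown, and angiomotins such as AMOTL1 and AMOTL2 bind and retain them. LATS2 and AMOTL2 are themselves targets, so that part of the pathway is a feedback loop, while CCN1, CCN2 and ANKRD1 are the genes most often read as a measure of its activity. HEK293T cells are a common cell for transfection studies of this pathway.

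The promoters are shown because the target genes are defined by TEAD binding. RefSeq starts on GRCh38.p14 were found for 8 of the 10 genes, at 11 start sites, and promoters of CCN1 and TEAD1 are not analysed here. The motif GGAATG was searched on both strands, so that it also counts as CATTCC, in the 250 bases before each start. It was found for 5 of these 8 genes. Of all 35116 start sites in the table, 11.9% held it. That share is per start site and not per gene, and some of the 8 genes have more than 1 start site. CCN2 held 3 copies, a number reached by 0.0826% of the start sites. The 250 bases before the CCN2 start (chr6:131951373-131951622, minus strand), with the motifs in capitals, read as follows.
CCN2: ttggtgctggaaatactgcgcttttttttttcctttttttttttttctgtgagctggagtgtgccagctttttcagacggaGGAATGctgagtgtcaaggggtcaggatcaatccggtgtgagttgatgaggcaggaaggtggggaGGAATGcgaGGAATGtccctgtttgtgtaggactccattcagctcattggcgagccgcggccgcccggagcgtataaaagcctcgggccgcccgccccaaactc
For the other genes with the motif, 30 bases around each copy are shown, again with the motif in capitals and along the strand of the gene. ANKRD1 held 2 copies, at 220 and 128 bases before its start (chr10:90921290-90921319 and chr10:90921198-90921227, minus strand).
ANKRD1 first copy: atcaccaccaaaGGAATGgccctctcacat
ANKRD1 second copy: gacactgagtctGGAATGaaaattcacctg
AMOTL2 (chr3:134374499-134374528, minus strand): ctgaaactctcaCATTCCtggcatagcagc
AJUBA (chr14:22976884-22976913, minus strand): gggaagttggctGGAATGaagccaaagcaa
YAP1 (chr11:102110273-102110302, plus strand): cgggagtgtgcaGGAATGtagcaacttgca
Windows were set by RefSeq starts, and some lie within GENCODE 29 transcripts. The copies of AMOTL2 and AJUBA and the second copy of ANKRD1 lie inside the gene's own span and in annotated exons, and the YAP1 copy lies before YAP1 but in an exon of another gene. The copies of CCN2 and the first copy of ANKRD1 lie outside both.
The letters of the CArG box, which the serum response factor reads, were in 0 of the 11 member windows and in 1.16% of all windows. A match describes the letters and does not show binding.

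CCN1 and CCN2, the secreted matrix-associated targets, fell in the PRMT1 OV cells, while ANKRD1 was at the edge of detection. CCN1 (ENSG00000142871, chromosome 1, 85580761 to 85583962, GRCh38 with GENCODE 29) encodes a protein that binds integrins. It had 28.5, 28.6 and 25.8 TPM in the PRMT1 OV libraries, against 81.6, 83.9 and 92.5 TPM in the Mock libraries, where TPM is a transcript level per length scaled to 1000000 per library. All PRMT1 OV values lay far below all Mock values. The means of 27.6 ± 1.56 TPM in PRMT1 OV and 86.0 ± 5.75 TPM in Mock (SD, n = 3 each) made it 3.11-fold lower. On log2(TPM + 1), which understates the change of low genes, the log2 difference, PRMT1 OV minus Mock, was -1.60 (SE 0.08, limma, Benjamini-Hochberg adjusted p = 5.32e-05 over all genes tested). CCN2 (ENSG00000118523, chromosome 6, 131948176 to 131951373), known as connective tissue growth factor, had 9.02, 8.56 and 10.0 TPM in the PRMT1 OV libraries and 21.0, 19.7 and 16.1 TPM in the Mock libraries. Here too the groups did not overlap, and the lowest Mock value was 16.1 TPM, in the library labelled Mock replicate 3. The mean of 9.21 ± 0.76 TPM in PRMT1 OV was 2.05-fold lower than the 18.9 ± 2.54 TPM in Mock (log2 difference -0.96, SE 0.12, adjusted p = 0.000857). In bulk RNA, fewer cells that express a gene and less RNA per cell cannot be told apart.

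ANKRD1 (ENSG00000148677, chromosome 10, 90912096 to 90921276) encodes an ankyrin repeat protein of nucleus and sarcomere. It had 0.70, 1.18 and 1.68 TPM in the PRMT1 OV libraries, against 1.29, 0.59 and 1.72 TPM in the Mock libraries. These values overlap throughout and rest on 9 to 19 reads per PRMT1 OV library and 7 to 20 per Mock library, as recovered from the TPM. The log2 difference was -0.002 with a 95% interval of -0.61 to 0.61 (adjusted p = 0.995). At so low a level the added pseudocount compresses fold changes, so this interval cannot be set against the fold seen in CCN2, and a difference was not detectable at this depth. The sign of this value turned under several settings.

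Of the inhibitors and scaffolds, AJUBA, AMOTL1 and LATS2 rose. AJUBA (ENSG00000129474, chromosome 14, 22971174 to 22982642) encodes a LIM protein that restrains LATS kinases at cell junctions. It had 7.65, 8.59 and 7.77 TPM in the PRMT1 OV libraries and 3.31, 4.24 and 3.34 TPM in the Mock libraries. Each PRMT1 OV value was well above the highest Mock value. The means were 8.002 ± 0.511 TPM in PRMT1 OV and 3.63 ± 0.53 TPM in Mock (SD, n = 3 each), a log2 difference of 0.96 (SE 0.13, limma adjusted p = 0.00092). Its rise kept its call under all 17 alternative settings, as did the falls of CCN1 and CCN2.

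AMOTL1 (ENSG00000166025, chromosome 11, 94706431 to 94876753), an angiomotin, had 17.9, 19.8 and 19.1 TPM in the PRMT1 OV libraries and 11.3, 13.6 and 7.99 TPM in the Mock libraries. The groups did not overlap, and the Mock values were the more spread, with Mock replicate 3 lowest. Its log2 difference was 0.76 (SE 0.17, limma adjusted p = 0.00843), a call lost under quantile normalization (0.37, adjusted p = 0.0584). LATS2 (ENSG00000150457, chromosome 13, 20973032 to 21061547), the inhibitory kinase, had 7.24, 8.18 and 8.96 TPM in the PRMT1 OV libraries and 5.70, 5.65 and 4.77 TPM in the Mock libraries. Again every PRMT1 OV value was above every Mock value. Its log2 difference was 0.52 (SE 0.12, adjusted p = 0.0111), and the call was lost after median-of-ratios scaling (0.21, adjusted p = 0.161). AMOTL2 (ENSG00000114019, chromosome 3, 134355874 to 134375479) is both an angiomotin and a target gene. It had 8.33, 9.36 and 9.11 TPM in the PRMT1 OV libraries and 6.86, 8.05 and 6.25 TPM in the Mock libraries. Its groups did not overlap either, but the gap between them was narrow, and the log2 difference of 0.31 did not pass (SE 0.12, 95% interval 0.03 to 0.59, adjusted p = 0.0665). It was -0.01 after median-of-ratios scaling. Without Mock replicate 2 it passed (0.40, adjusted p = 0.0441).

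The coactivator genes did not pass the threshold, and TEAD1 rose. YAP1 (ENSG00000137693, chromosome 11, 102110461 to 102233423) had 24.2, 30.01 and 21.9 TPM in the PRMT1 OV libraries, against 22.0, 24.9 and 17.05 TPM in the Mock libraries. WWTR1 (ENSG00000018408, chromosome 3, 149517235 to 149736714), the gene of TAZ, had 6.51, 9.64 and 7.63 TPM in the PRMT1 OV libraries and 6.61, 6.9997 and 5.86 TPM in the Mock libraries. In both genes the groups overlapped, PRMT1 OV replicate 2 was highest and Mock replicate 3 was lowest. The log2 difference of YAP1 was 0.25 (95% interval -0.13 to 0.62, limma adjusted p = 0.246) and that of WWTR1 was 0.24 (95% interval -0.11 to 0.59, adjusted p = 0.218). After median-of-ratios scaling the values were -0.10 for YAP1 and -0.07 for WWTR1, so no direction can be given for either. TEAD1 (ENSG00000187079, chromosome 11, 12674591 to 12944483), which encodes a DNA-binding partner of both, had 7.81, 10.2 and 7.74 TPM in the PRMT1 OV libraries and 4.85, 5.47 and 3.05 TPM in the Mock libraries. Its groups did not overlap, with the same highest and lowest libraries. The means were 8.59 ± 1.40 TPM in PRMT1 OV and 4.46 ± 1.25 TPM in Mock (SD, n = 3 each), a log2 difference of 0.83 (SE 0.20, adjusted p = 0.0105). TEAD1 passed after median-of-ratios scaling (0.53, adjusted p = 0.0242) but not under quantile normalization (0.37, adjusted p = 0.0951) or after GC correction (0.37, adjusted p = 0.0555).

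**Figure D1:**
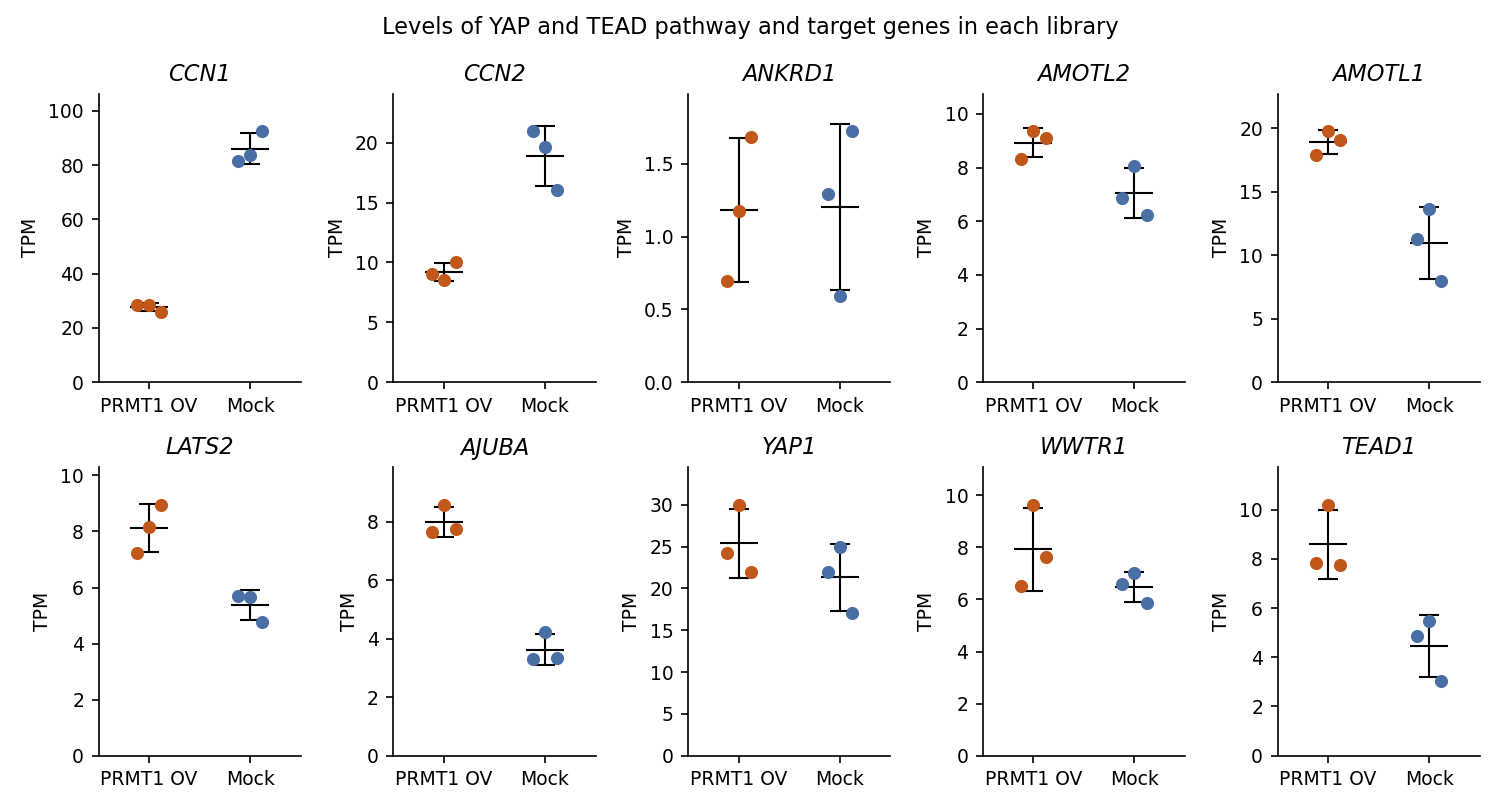
TPM of each of the 10 genes in each library (points), with the group mean and SD (bars, n = 3 each), PRMT1 OV left and Mock right, each panel starting at 0. CCN1 and CCN2 lie lower in all PRMT1 OV libraries than in any Mock library, AMOTL2, AMOTL1, LATS2, AJUBA and TEAD1 lie higher, and the groups overlap for ANKRD1, YAP1 and WWTR1.

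Of the 10 genes, all of which reached 1 TPM in at least 3 libraries, 4 rose and 2 fell. Among the 15341 genes tested, 49.0% passed, 40.3% as higher and 8.64% as lower, so the share of rising members is close to the background, and the falling members are only 2 genes. The PRMT1 OV libraries were all above the Mock libraries for 5 of the 10 genes and all below them for 2, against 49.8% and 11.6% of all tested genes, together 61.4%. The median log2 difference was 0.28 over the members and 0.30 over all tested genes. Measured from that all-gene median, CCN1 lay at -1.91 and CCN2 at -1.26, LATS2 at 0.21, AMOTL1 at 0.46, TEAD1 at 0.53 and AJUBA at 0.66. CCN1 was at percentile 0.293 and CCN2 at percentile 1.14 of the log2 differences of all tested genes, counted from the lowest. AJUBA, at percentile 88.7, was the highest of the members. Median-of-ratios scaling, which moved the all-gene median to 0.006, left AJUBA, AMOTL1 and TEAD1 as the members called higher, with 23.5% of all genes, and CCN1 and CCN2 as those called lower, with 24.1% of all genes. After GC correction AJUBA and AMOTL1 were called higher, with 23.7% of all genes, and under quantile normalization AJUBA, with 20.3%. CCN1 and CCN2 were called lower in both, with 25.4% of all genes after GC correction and 19.4% under quantile normalization.

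**Figure D2:**
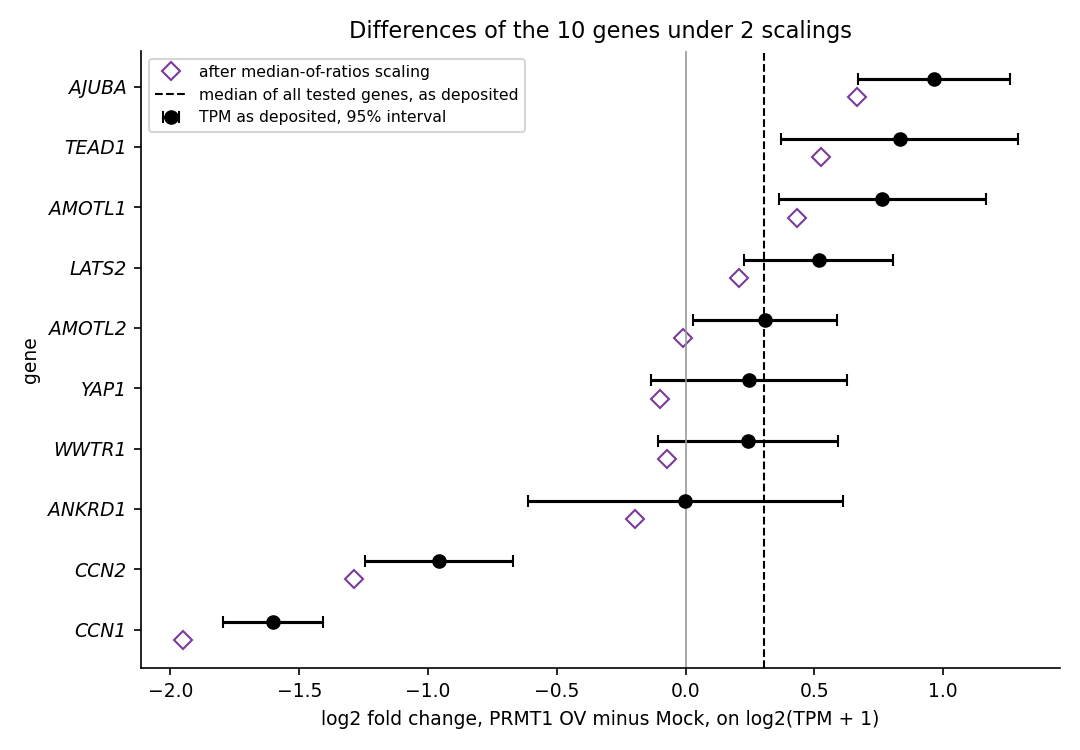
Log2 difference of each gene, PRMT1 OV minus Mock, with its 95% interval in TPM as deposited (black) and the value after median-of-ratios scaling (open diamonds). CCN1 at -1.60 and CCN2 at -0.96 stay on the negative side under both, AJUBA, TEAD1 and AMOTL1 on the positive side, and the diamonds of AMOTL2, YAP1, WWTR1 and ANKRD1 lie below 0.

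The libraries were comparable in depth, and 2 of them stood apart. PRMT1 was at 62895 to 84923 TPM in the PRMT1 OV libraries and at 368 to 397 TPM in the Mock libraries, so each library matched its label. It took 7.32% of the PRMT1 OV total on average, which lowers the TPM of every other gene there. Recovered depth was 19874175 to 23163971 reads in PRMT1 OV and 18196678 to 20424787 reads in Mock. All 8 markers fixed for the line, among them NEFM, PAX2 and KRT8, averaged at least 1 TPM, and their sum was 1089 to 1236 TPM in PRMT1 OV and 1555 to 1679 TPM in Mock, with no overlap. The part of this difference in the results was not tested. Markers of endothelium summed to 0.284 to 0.645 TPM in PRMT1 OV and 0.0919 to 0.226 TPM in Mock. Blood cell markers summed to 2.40 to 3.26 TPM in PRMT1 OV and 1.91 to 2.93 TPM in Mock, with CD3E at 0 throughout. Fibroblast markers summed to 10.7 to 11.6 TPM in PRMT1 OV and 12.8 to 18.1 TPM in Mock, and only COL1A1 of them averaged at least 1 TPM. The endothelium and fibroblast sums did not overlap between groups either, while the blood cell sums did. Mock replicate 3 and PRMT1 OV replicate 2 stood apart from their groups. Mock replicate 3 was the lowest of its group for 7 of the 10 genes and for 55.6% of all tested genes, and PRMT1 OV replicate 2 the highest of its group for 7 of the 10 and for 59.9% of all tested genes. Without these libraries the log2 differences were -1.57 for CCN1, -1.02 for CCN2, 0.87 for AJUBA, 0.54 for AMOTL1, 0.51 for TEAD1 and 0.44 for LATS2, all past the threshold. They were 0.20 for AMOTL2, 0.16 for ANKRD1, 0.05 for WWTR1 and -0.02 for YAP1, none past it.

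Within families of paralogs, whose shares do not depend on how a library is scaled, the balance differed between groups in several cases. These shares of summed TPM are a description. AJUBA made up 51.1 ± 0.78% of the TPM of the LIM genes AJUBA, LIMD1 and WTIP in PRMT1 OV and 29.7 ± 3.35% in Mock (SD, n = 3 each), with no overlap between groups. TEAD1 was a minor member of its family, at 6.31 ± 1.17% of the TEAD total in PRMT1 OV and 3.11 ± 0.68% in Mock. TEAD2 held 36.9 ± 1.42% in PRMT1 OV and 47.9 ± 0.49% in Mock, and TEAD4 held 47.4 ± 1.67% in PRMT1 OV and 40.4 ± 0.81% in Mock. The sum of the TEAD genes was 136 ± 3.82 TPM in PRMT1 OV and 142 ± 10.5 TPM in Mock, and its ranges overlapped. AMOT was the main angiomotin in every library, with 81.4 ± 1.47% in PRMT1 OV and 83.3 ± 2.43% in Mock. YAP1 took 76.2 ± 2.36% of the YAP1 and WWTR1 total in PRMT1 OV and 76.5 ± 1.87% in Mock.

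**Figure D3:**
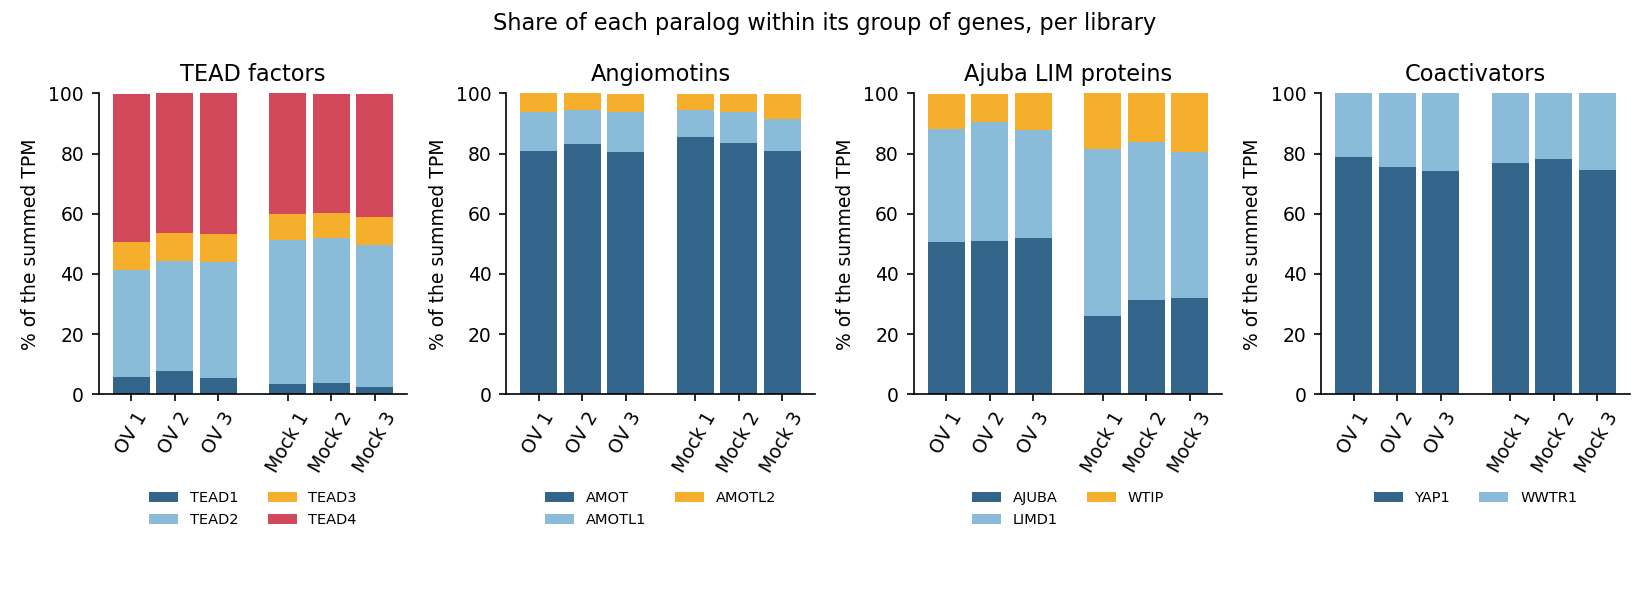
Share of each paralog in the summed TPM of its family, 1 stacked bar per library, PRMT1 OV left and Mock right. The AJUBA share is 50.4 to 51.9% in PRMT1 OV and 25.8 to 31.9% in Mock, the TEAD1 share is the smallest of its family in every bar, and the YAP1 share is 74.2 to 78.8% in PRMT1 OV and 74.4 to 78.1% in Mock.

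Ratios of paralogs were compared within libraries for 3 pairs, on log2(TPM + 1). CCN1 minus CCN2 was 1.56, 1.63 and 1.28 in PRMT1 OV and 1.91, 2.04 and 2.46 in Mock, so CCN1 stood above CCN2 everywhere, by less in PRMT1 OV. The difference of -0.65 had an exact two-sided permutation p = 0.1, the smallest that 3 against 3 allows (adjusted over the 3 pairs, p = 0.15), so the design cannot reach 0.05. AMOTL1 minus AMOTL2 was 1.02, 1.00 and 0.99 in PRMT1 OV and 0.64, 0.69 and 0.31 in Mock, a difference of 0.46 with the same exact p = 0.1 and adjusted p = 0.15. YAP1 minus WWTR1 averaged 1.57 ± 0.17 in PRMT1 OV and 1.56 ± 0.15 in Mock, a difference of 0.004 that was well within the spread (exact permutation p = 1).

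The genes that fell are short and the genes that rose are longer. CCN1 and CCN2 each span 3.20 kb of the genome, AJUBA spans 11.5 kb, LATS2 88.5 kb, AMOTL1 170 kb and TEAD1 270 kb. The genes past no threshold include long ones too. ANKRD1 spans 9.18 kb, AMOTL2 19.6 kb, YAP1 123 kb and WWTR1 219 kb, so WWTR1 is longer than AMOTL1 and YAP1 longer than LATS2. Length moved with the difference over the whole table as well. For protein-coding genes sorted by span, the median difference was 0.04 (log2) in the shortest decile, from 0.207 to 5.63 kb, where CCN1 and CCN2 lie, and 0.34 in the longest. Both genes lie far below their decile's median, AJUBA lies above the 0.21 of its own, and YAP1 and WWTR1 lie below the 0.45 and 0.34 of theirs. GC content moved with the difference too, with a median of 0.50 in the decile of lowest GC and 0.01 in that of highest GC. Transcripts of WWTR1, TEAD1 and YAP1 have 40.9, 41.3 and 43.5% GC, in deciles with medians of 0.52, 0.44 and 0.37. CCN1 and CCN2, at 50.3 and 51.5% GC, lie in a decile with a median of 0.32. After GC correction their log2 differences were -1.92 and -1.25. The part of length in these results was not tested.

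**Figure D4:**
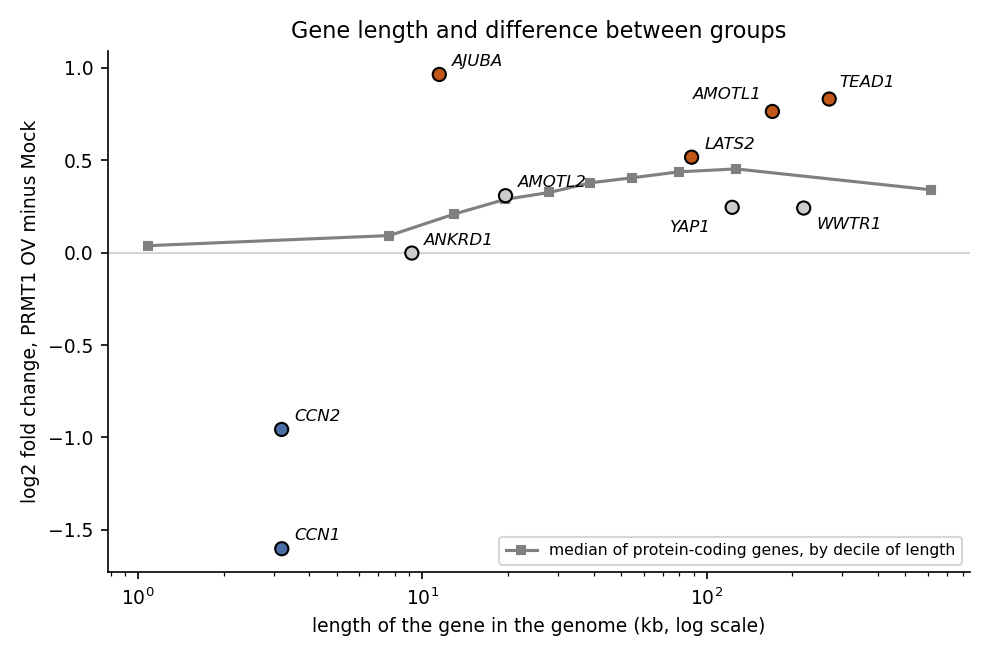
Log2 difference of the 10 genes, PRMT1 OV minus Mock, against the length of each gene in the genome (kb, log scale), with the medians of protein-coding genes by decile of length (grey squares, at the middle of each decile). CCN1 and CCN2, at 3.20 kb each, lie below the line, and AJUBA, AMOTL1, TEAD1 and LATS2 lie above it.

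No strand setting is given, and CCN2, AMOTL2, AMOTL1, AJUBA, YAP1 and WWTR1 share exonic bases with another gene. The largest share was that of YAP1, with 628 bases or 9.97% of its exonic length, on the opposite strand. The opposite-strand RNA gene WWTR1-AS1 shares 795 exonic bases with WWTR1, or 9.45% of its exonic length, and reached at most 1.37 TPM in any library. An unnamed opposite-strand gene shares 195 bases with CCN2, and reached at most 0.708 TPM in PRMT1 OV and 1.29 TPM in Mock. Genes that share bases with AMOTL2, AMOTL1, AJUBA and YAP1 were listed at 0 throughout.

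Among genes upstream of YAP and TAZ, RASSF1 changed most of those named. The counts of called genes in each list stand against 40.3% higher and 8.64% lower over all tested genes in TPM as deposited, 23.5% and 24.1% after median-of-ratios scaling, 23.7% and 25.4% after GC correction, and 20.3% and 19.4% under quantile normalization. Of 26 tested genes of the Hippo kinases and their upstream regulators, 12 rose and 1 fell, with a median of 0.39, near the 40.3% and 8.64% of all tested genes, and 7 rose and 4 fell after median-of-ratios scaling. The counts were 6 and 6 after GC correction and 3 and 3 under quantile normalization. RASSF1, a scaffold that binds the Hippo kinases, had 43.2 ± 0.62 TPM in PRMT1 OV and 8.36 ± 0.96 TPM in Mock (SD, n = 3 each), a log2 difference of 2.24 (SE 0.10, limma adjusted p = 3.27e-05). The kinase genes TAOK2 and MAP4K3, whose products can activate the pathway, rose by 1.35 and 1.01 on the log2 scale. MAP4K2, of the same kinase family, fell by 0.41, a call lost without Mock replicate 1 or 2 or PRMT1 OV replicate 1 or 3 (adjusted p = 0.097, 0.0681, 0.0727 and 0.0669). The MAP4K2 call was also lost with TPM rescaled after removing PRMT1 (adjusted p = 0.0549) and with no expression filter (adjusted p = 0.0521). LATS1, named as the partner of LATS2, had a log2 difference of 0.81 (adjusted p = 0.00699), a call lost under quantile normalization (0.36, adjusted p = 0.0662). Of 13 tested subunits of STRIPAK, a phosphatase complex that opposes the Hippo kinases, 8 rose and 2 fell, with a median of 0.49, against 40.3% and 8.64% of all tested genes. The counts were 3 and 3 after scaling, near the 23.5% and 24.1% of all genes, 3 and 4 after GC correction and 4 and 1 under quantile normalization. STRN3, MOB4 and PPP2CA rose by 1.13, 0.89 and 0.57, PPP2CA not after scaling (adjusted p = 0.0552). PPP2R1A and STRN4 fell by 0.27 and 0.20, and neither passed with TPM rescaled after removing PRMT1 (adjusted p = 0.125 and 0.279). The PPP2R1A call was also lost without Mock replicate 1 or 2 or PRMT1 OV replicate 1 or 2 (adjusted p = 0.0798, 0.079, 0.0689 and 0.0571), and the STRN4 call without Mock replicate 1 or 2 or any single PRMT1 OV library (adjusted p = 0.123, 0.11, 0.107, 0.0683 and 0.0631).

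The other TEAD factors and cofactors held 4 tested genes, of which 0 rose and 1 fell, and 0 and 2 after scaling, too few to read against the share of all genes. TEAD2 had 50.4 ± 3.20 TPM in PRMT1 OV and 67.9 ± 5.71 TPM in Mock (SD, n = 3 each), a log2 difference of -0.42 (SE 0.09, limma adjusted p = 0.00687). TEAD4, with 64.7 TPM in PRMT1 OV and 57.1 TPM in Mock, had a log2 difference of 0.18 (adjusted p = 0.09) and -0.17 after scaling. Of 13 tested genes for retention and turnover of YAP and TAZ, 5 rose and 1 fell, near the 40.3% and 8.64% of all tested genes. The counts were 4 and 5 after scaling, 4 and 6 after GC correction and 7 and 0 under quantile normalization. BTRC, the ubiquitin ligase receptor that recognises phosphorylated YAP and TAZ, rose by 1.09, and CUL1 and the kinase gene CSNK1D by 0.73 and 0.67. CSNK1E fell by 0.24, a call lost under quantile normalization (adjusted p = 0.168) and without Mock replicate 1 or 2 (adjusted p = 0.0667 and 0.0595). The CSNK1E call was also lost with TPM rescaled after removing PRMT1 (adjusted p = 0.11) and with no variance trend (adjusted p = 0.0581).

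Other target genes of YAP, TAZ and TEAD did not move one way. Of 22 listed, 12 were tested and the other 10 were under the filter, among them THBS1 and AXL. Of those 12, 4 rose and 3 fell, with a median of 0.29, against 40.3% higher and 8.64% lower over all tested genes. After scaling 1 rose and 3 fell, with 24.1% of all genes lower, and the counts were 2 and 4 both after GC correction and under quantile normalization. NUAK2, a stress kinase gene, had 1.92 ± 0.18 TPM in PRMT1 OV and 8.30 ± 1.41 TPM in Mock (SD, n = 3 each), a log2 difference of -1.66 (SE 0.15, limma adjusted p = 0.000223). GADD45A, a growth arrest gene, had 223 ± 7.90 TPM in PRMT1 OV and 363 ± 10.2 TPM in Mock, and F3, the gene of tissue factor, 1.07 ± 0.30 TPM in PRMT1 OV and 2.15 ± 0.21 TPM in Mock. The F3 call was lost without Mock replicate 1 (adjusted p = 0.0713) or PRMT1 OV replicate 3 (adjusted p = 0.0583). It was also lost with no expression filter (adjusted p = 0.0524) and without both Mock replicate 3 and PRMT1 OV replicate 2 (adjusted p = 0.0572). In PRMT1 OV the level of F3 was close to the filter of 1 TPM and as low as that of ANKRD1. The transcription factor gene FOXF2 rose by 0.69, FJX1 by 0.65 and ASAP1 by 0.66, FJX1 and ASAP1 not after scaling (adjusted p = 0.1 and 0.0783), and ASAP1 not without PRMT1 OV replicate 2 (adjusted p = 0.0673).

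CCN1 and CCN2 are also immediate early genes, induced within minutes to hours of serum or growth factor. Of 14 tested immediate early genes outside the 10, 10 fell and 4 rose, with a median of -0.64, against 8.64% lower and 40.3% higher over all tested genes. This list, like the others, was written with earlier results of these data known, so its counts are a description and not a test. After scaling 10 fell and 2 rose, with 24.1% of all genes lower. After GC correction 10 fell and 3 rose, with 25.4% lower, and under quantile normalization 9 fell and 4 rose, with 19.4% lower. EGR1 and FOS, early transcription factor genes, had log2 differences of -3.19 and -1.79, and JUNB -1.13 (limma adjusted p at most 6.99e-05). FOSL1, MYC and JUN rose by 1.11, 0.73 and 0.64, JUN not after scaling (adjusted p = 0.0522). Among the 82 tested genes of the lists, the 3 whose centred log2(TPM + 1) profile over the 6 libraries lay nearest to that of CCN2 were FOSB, JUNB and DUSP1, with root mean square differences of 0.05, 0.12 and 0.16. For YAP1 they were FAT4, DCHS1 and WWC2, with 0.06, 0.08 and 0.09. FAT4 averaged 1.48 TPM in PRMT1 OV and 0.97 TPM in Mock, and DCHS1 2.01 TPM in PRMT1 OV and 1.57 TPM in Mock. At such levels the pseudocount of 1 TPM compresses a profile, so their nearness to YAP1 depends in part on it. The CCN2 profile mostly reflects the difference between groups. For YAP1 the groups overlapped, with PRMT1 OV replicate 2 highest and Mock replicate 3 lowest. Its profile thus holds the spread within groups as well.

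**Figure D5:**
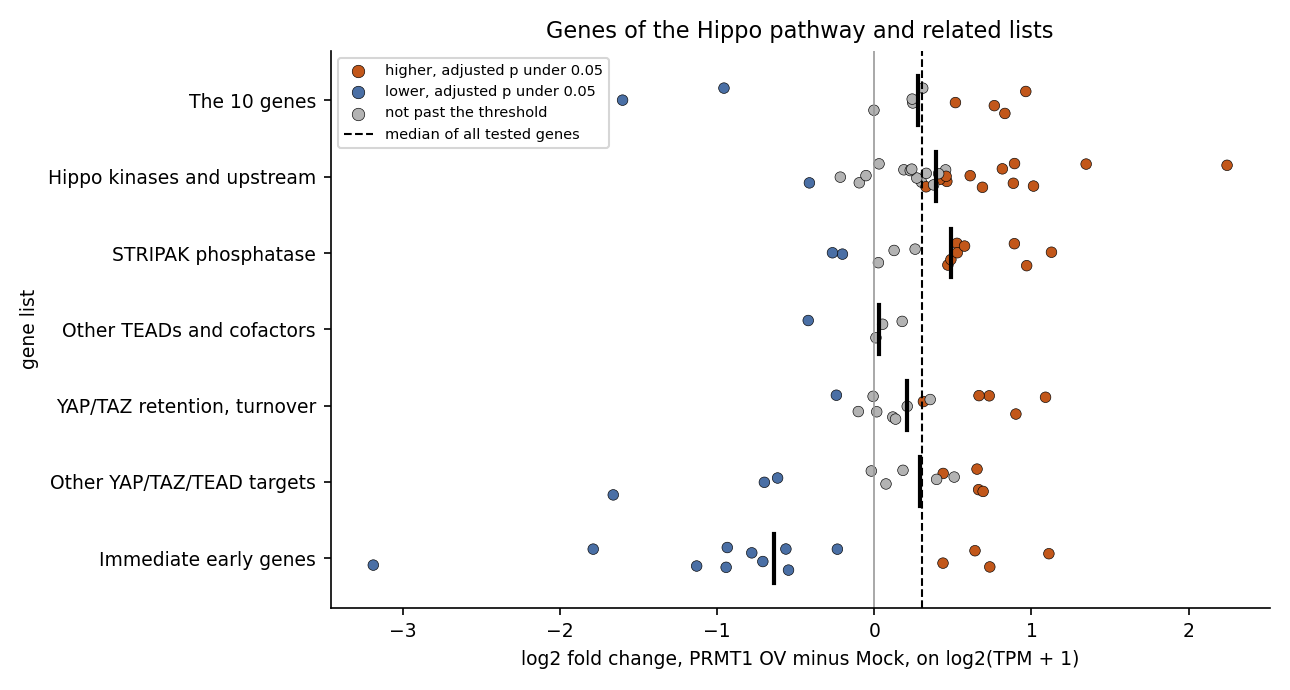
Log2 difference of each tested gene, PRMT1 OV minus Mock, for the 10 genes and 6 lists (points), with the list median (bar) and the median of all tested genes (dashed line). The bar of the immediate early genes, at -0.64, lies farthest from the dashed line at 0.30, while the bars of the 10 genes and of the other targets lie close to it.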

How the data were processed

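The deposited table holds TPM per Ensembl gene and library, and each column adds up to 1000000. Per the submitters' processing notes, Trimmomatic 0.36, STAR 2.5.2b, featureCounts and Subread 1.5.2 were used with GRCh38. Not given in the sources used here are their roles, the annotation, the strand setting and the TPM formula. Columns were matched to samples by title. Of 57500 identifiers, 40907 had a symbol, and coordinates came from GENCODE 29, which held 56898. TPM multiplied by GENCODE exonic length came out as whole multiples of a per-library step (95.5 to 95.9% of values under 50 reads within 0.05), which gave the recovered reads. For a gene of 1 kb, 3 reads are 0.459 to 0.526 TPM.

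The fit used limma 3.58.1 (R 4.3.3, eBayes with a trend, no covariate) on log2(TPM + 1) for genes reaching 1 TPM in 3 or more libraries, with Benjamini-Hochberg adjustment over all of them and a threshold of 0.05. Paralog ratios were compared by exact permutation. The members and gene lists were chosen with earlier results of these data known. Text names all members, PRMT1 and, per list, up to 3 genes with the smallest p in each direction with at least 2 TPM. LATS1, TEAD4, KRT8 and other paralogs or markers outside that rule were chosen after their values were seen. Libraries of a group differed by more than counting noise (chi-square per degree of freedom 2.7 to 23.2), so none was taken for a duplicate. Alternatives were other pseudocounts, filters and scalings, no trend, the replicate number as a block, libraries left out and, chosen after seeing the data, a lowess GC correction.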

Additional observations from a re-analysis of the deposited data

How the results depend on the processing

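The calls of CCN1, CCN2 and AJUBA held under all 17 alternatives, CCN1 from -1.95 to -1.48, CCN2 from -1.35 to -0.75 and AJUBA from 0.50 to 1.13 (log2). Median-of-ratios scaling, quantile normalization and GC correction gave 3605, 3109 and 3613 higher and 3692, 2979 and 3878 lower genes, against 6190 and 1325. PRMT1 taken out gave 880 lower, and leaving out libraries gave 935 to 2115 lower, the highest without both Mock replicate 3 and PRMT1 OV replicate 2. Members called higher numbered 1 under quantile normalization and 2 after GC correction, against 4. Weakened calls were AMOTL1 (0.37, quantile), TEAD1 (0.37, quantile and GC correction) and LATS2 (0.21 by median of ratios, 0.052 by quantile, 0.22 by GC correction). AMOTL2 passed at 0.41 with PRMT1 taken out and reversed to -0.0093 by median of ratios and -0.15 by quantile. Reversals among values that never passed were YAP1 (-0.10 by median of ratios, -0.071 by quantile, -0.16 by GC correction, -0.023 without both libraries that stand apart), WWTR1 (-0.073, -0.22 and -0.22 by the first 3) and ANKRD1 (0.013 with a pseudocount of 0.1 TPM, 0.057 with PRMT1 taken out, 0.16 without both libraries). The YAP1 minus WWTR1 difference was -0.015 with a pseudocount of 0.1 TPM. Libraries left out gave AMOTL2 from 0.20 to 0.40, ANKRD1 from -0.22 to 0.17, YAP1 from -0.023 to 0.36, and YAP1 minus WWTR1 from -0.086 to 0.082. The cause of these shifts was not tested. ANKRD1 could not be fitted at a filter of 5 TPM.

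Same-numbered libraries did not deviate together (correlations of -0.03, 0.06 and 0.02 for numbers 1, 2 and 3). With the replicate number as a block, 6275 genes were higher and 1314 lower, 4 members were higher and 2 lower, and the adjusted p of YAP1 was 0.0743. STRN4 lost its call there (adjusted p = 0.0739). Of the 26 pathway genes named by rule, 17 kept their call under every alternative. The other 9 lost it under at least 1, and not every such setting is given above. LATS1 lost its call under quantile normalization alone, and TEAD4 reversed to -0.17 by median of ratios and passed at 0.28 with PRMT1 taken out and at 0.16 without both libraries. Depth limits ANKRD1, with at most 20 reads per library.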
